A study of Mus musculus with 17 samples.

Results

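The DNA replication genes are 35 genes, of 55450 in the bulk expression table, that encode the machinery copying chromosomal DNA in S phase. They were taken by name according to their role in the replication fork, not by any measured value, and all 35 were found and passed the filter on low values. They comprised the 6 subunits of the MCM2-7 helicase, 4 origin recognition and licensing factors, 6 factors that assemble the active helicase, 5 polymerase and primase subunits, the sliding clamp with its 5 loader subunits, 2 enzymes of Okazaki fragment processing, 4 enzymes of deoxynucleotide supply and 2 subunits of chromatin assembly factor 1, Chaf1a and Chaf1b.

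In G1, the origin recognition complex, Cdc6 and Cdt1 load the MCM2-7 ring onto origins, and at S phase entry Cdc45, GINS and Mcm10 turn the loaded ring into a moving helicase. Polymerases α, δ and ε then copy the strands, δ and ε on the sliding clamp Pcna. Ribonucleotide reductase and its partners supply deoxynucleotides, and chromatin assembly factor 1 puts new histones behind the fork. Many of these genes are transcribed at the G1/S transition under E2F factors, so their mRNA is commonly read as a sign of proliferation in tumor cells.

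The samples were cultured cells from tumor-bearing organs of 10 female FVB/NJ MMTV-PyMT mice, 10 to 12 weeks old. These mice carry the polyoma middle T oncogene under the mouse mammary tumor virus promoter. Cells from the mammary fat pad (MFP, the primary tumor site), from lymph node (LN) and lung, and from bone marrow (BM) were enriched in culture for about a month. LN, BM and lung cells were sorted as EpCAM-high and either CD44low or CD44high, whereas MFP carried no CD44 status. Bulk RNA was sequenced from 14 libraries, 2 for each of MFP, LN CD44low, LN CD44high, BM CD44low, BM CD44high, Lung CD44low and Lung CD44high, and the replicates of a group were distinct clonal isolates from different mice. Single cells were measured in 3 libraries, 1 each of lung CD44high (lungH), lung CD44low (lungL) and LN CD44high (lymphH) cells. Each bulk group therefore stood for 2 clones. For single cells the study states 2 replicates per sample, as clones from different mice, whereas 1 library of each is listed. The labels do not say how many clones a single-cell library held, and a trait of a clone cannot be told apart from a trait of its organ or sort.

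Bulk values were length-scaled transcript abundances (TPM, reads per transcript length scaled to a common total in each library), with 11508 to 13052 genes at or above 1 TPM per library. Epithelial identity was checked with 8 markers (Epcam, keratins, cadherin and claudins). Their summed level was 6714 to 7583 TPM in MFP and 2185 to 4434 TPM in LN and BM, but 1.74 and 2.36 TPM in Lung CD44low and 15.8 and 87.6 TPM in Lung CD44high. Epcam itself was listed at 0 in both Lung CD44low libraries and at 0.23 and 0.86 TPM in Lung CD44high, against 315 to 941 TPM in the other 10 libraries, so the lung libraries went against their EpCAM-high sort. Lung CD44low held 4708 and 5117 TPM of 8 fibroblast markers, against 195 and 85.7 TPM in Lung CD44high. Of 6 smooth muscle or myoepithelial markers it held 755 and 821 TPM, mostly the smooth muscle actin Acta2 (657 and 711 TPM), against 1.89 and 0.73 TPM in Lung CD44high. MFP held 594 and 656 TPM of the same 6 markers, nearly all of it the basal keratin Krt14 (594 and 655 TPM), which was listed at 0 in the 4 lung libraries. Every comparison with lung below therefore also compared libraries that differed in these markers, and the part of cell identity in them was not tested.

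Promoter sequence is shown for 4 members, because an E2F form was more frequent among these genes than among all genes. Windows from 250 bases before to 50 bases after the start (RefSeq, GRCm38.p6) were given for 29 of the 35 genes and were searched on both strands for the E2F forms TTCCCGC and TTGGCGC. In each of the 8 roles the gene with the widest spread of bulk group means was taken, so the choice rests on measured levels, and of these 8 windows all 3 with a match are shown. They are those of Mcm6, a helicase subunit (chr1:128359656-128359955, minus strand), Cdc6, the helicase loader (chr11:98907901-98908200, plus strand), and Chaf1b, a histone chaperone subunit (chr16:93883651-93883950, plus strand). Tk1, thymidine kinase (chr11:117825965-117826264, minus strand), had the widest spread among the 5 without a match and is shown as a window with 0 matches. Each is written 5′ to 3′ along its gene, and capitals mark the E2F forms or their reverse complements.
Mcm6: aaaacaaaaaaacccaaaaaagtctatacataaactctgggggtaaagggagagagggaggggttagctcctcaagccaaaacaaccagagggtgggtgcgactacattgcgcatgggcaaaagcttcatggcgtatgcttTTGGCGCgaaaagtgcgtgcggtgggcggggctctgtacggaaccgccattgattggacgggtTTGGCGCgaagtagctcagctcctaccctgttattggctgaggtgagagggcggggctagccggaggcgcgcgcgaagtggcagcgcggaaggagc
Cdc6: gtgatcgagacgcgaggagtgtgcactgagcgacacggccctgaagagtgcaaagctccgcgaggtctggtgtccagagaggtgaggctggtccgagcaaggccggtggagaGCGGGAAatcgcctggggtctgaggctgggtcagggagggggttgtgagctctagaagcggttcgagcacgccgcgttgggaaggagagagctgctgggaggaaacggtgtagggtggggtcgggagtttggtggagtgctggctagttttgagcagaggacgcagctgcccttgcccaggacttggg
Chaf1b: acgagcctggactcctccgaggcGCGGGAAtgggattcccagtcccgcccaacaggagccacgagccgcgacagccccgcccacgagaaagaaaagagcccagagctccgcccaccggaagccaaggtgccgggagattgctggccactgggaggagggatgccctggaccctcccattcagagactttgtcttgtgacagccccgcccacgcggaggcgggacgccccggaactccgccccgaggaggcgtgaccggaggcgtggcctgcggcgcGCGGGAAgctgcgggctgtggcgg
Tk1: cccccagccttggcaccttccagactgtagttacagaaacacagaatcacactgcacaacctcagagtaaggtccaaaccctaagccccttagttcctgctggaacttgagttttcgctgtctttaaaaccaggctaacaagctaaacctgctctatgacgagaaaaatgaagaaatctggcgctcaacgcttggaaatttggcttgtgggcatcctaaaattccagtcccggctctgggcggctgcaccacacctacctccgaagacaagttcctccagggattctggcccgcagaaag
The Mcm6 matches lay at -109 and -46 from the start, the Cdc6 match at -138 and the Chaf1b matches at -227 and 27. An E2F form was present in 16 of the 29 windows (55.2%), against 6.93% of the windows of 27025 genes. The NF-Y box CCAAT was present in 18 (62.1%, against 37.9% of all genes) and the GC box GGGCGG in 21 (72.4%, against 35.9%). The cell cycle homology forms TTTGAA and TTCGAA were present in 6 (20.7%, against 19.4%), whereas 12 of 14 mitosis markers with a window held one of them (85.7%). These are matches of letters in a window, and motifs of different kinds may overlap.

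In bulk, the replication genes stood far lower in lung-derived cells than in all other groups. Their summed level was 2919 and 1874 TPM in the MFP libraries, 3064 and 1144 TPM in LN CD44low, 2790 and 2947 TPM in LN CD44high, 3192 and 2695 TPM in BM CD44low and 2070 and 2602 TPM in BM CD44high. It was 363 and 349 TPM in Lung CD44low and 360 and 461 TPM in Lung CD44high. The 4 lung libraries therefore lay below the other 10 without overlap, and the next library up was replicate 2 of LN CD44low. Gene by gene, all 4 lung libraries lay below all 10 others for 32 of the 35 members, where 9.83% of all tested genes did so, and the exceptions were Pola1, Rfc1 and Tyms. The lowest group mean was a lung group for 34 members, Lung CD44low for 23 and Lung CD44high for 11. In bulk RNA, fewer cells in S phase and less replication mRNA per cell cannot be told apart.

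**Figure D1:**
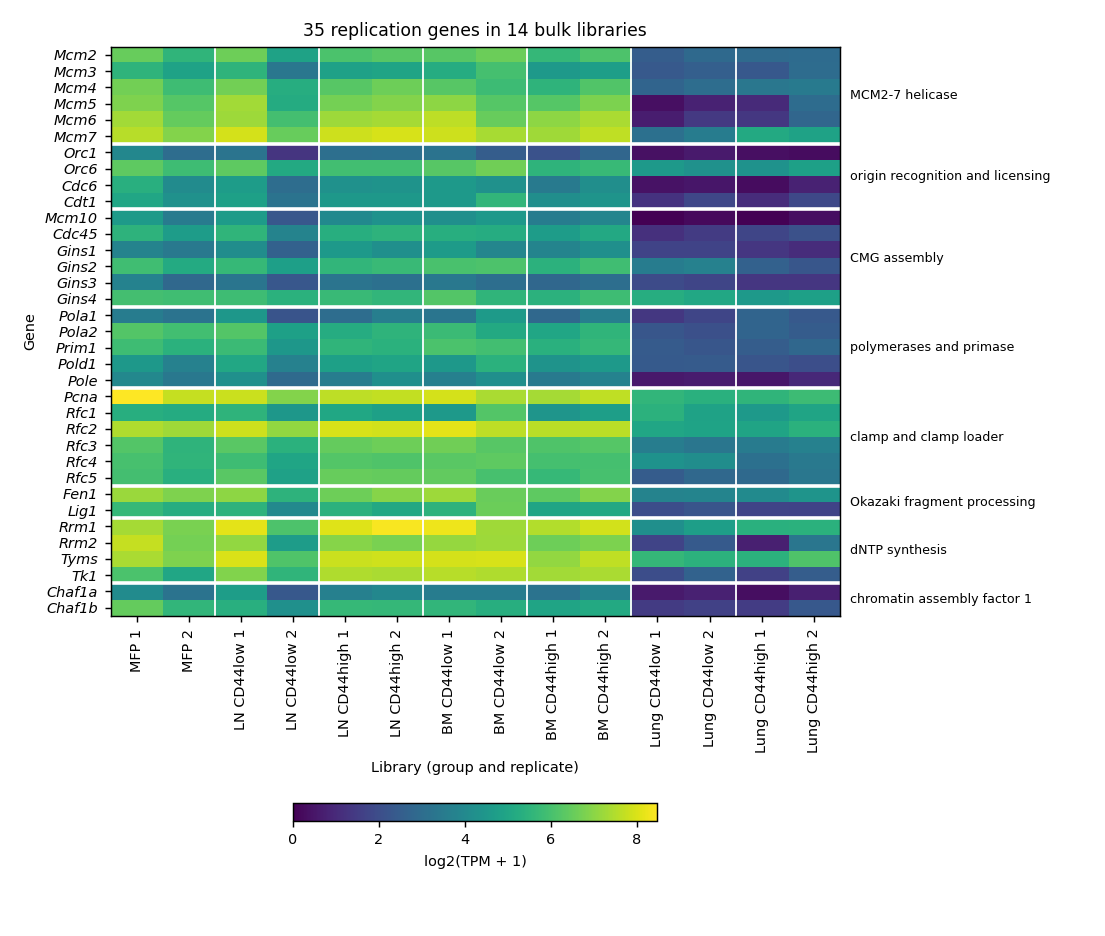
Level of each of the 35 members in each of the 14 bulk libraries, on the log2(TPM + 1) scale shown by the colour bar, with genes in rows ordered by role and libraries in columns. Dark colours are low levels: the 4 lung columns are darker than the rest for nearly every gene, apart from a few rows such as Rfc1 and Gins4, and LN CD44low replicate 2 is darker than the other LN and BM columns.

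**Figure D2:**
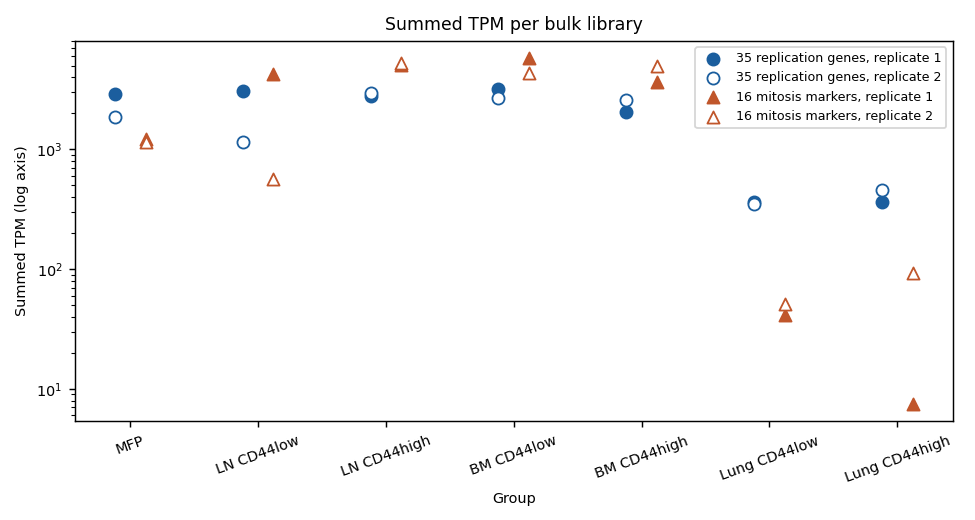
Summed TPM of the 35 members and of 16 mitosis markers in each bulk library on a log axis, with filled points for replicate 1 and open points for replicate 2 of each group. The members lie at 349 to 461 TPM in the lung libraries and at 1144 to 3192 TPM in the other 10, and the mitosis markers at 7.48 to 93.7 TPM and 563 to 5790 TPM.

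Differences were tested with limma on log2(TPM + 1), with Benjamini-Hochberg adjustment over 15348 genes, and a differentially expressed gene (DEG) was taken as past 2 in absolute log2 fold change with an adjusted p under 0.05. Because 1 TPM was added, fold changes of genes with low levels are understated. Against MFP, 25 members were lower DEGs in Lung CD44low, where 7.62% of all genes were, and 33 passed the adjusted p alone in that direction, where 23.1% did. In Lung CD44high, 27 were lower DEGs (8.03% of all genes) and 32 passed the adjusted p alone (21.2%). No member was a higher DEG in either lung group, where 11.2% and 5.42% of all genes were. The median log2 fold change over the members was -2.98 in Lung CD44low and -2.85 in Lung CD44high, against medians of 0 and -0.042 over all genes. Both comparisons used the same 2 MFP libraries. Set against the 8 LN and BM libraries, the lung libraries had 28 members as lower DEGs (5.54% of all genes), 34 past the adjusted p alone (24% of all genes) and a median of -2.92 (all genes 0.196).

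The MCM2-7 helicase unwinds the template, and 6 of 6 subunits were lower DEGs in both lung groups. In Lung CD44high, Mcm3 was no longer a DEG without Lung CD44high replicate 1 (adjusted p = 0.0636) or without MFP replicate 1 (0.061), and Mcm7 was none without MFP replicate 1. Mcm6 was at 158 and 87.4 TPM in MFP, between 60.8 and 196 TPM (median 150) in the 8 LN and BM libraries, and at 0.60 and 1.65 TPM in Lung CD44low and 1.62 and 5.97 TPM in Lung CD44high. Mcm5 was at 113 and 74.3 TPM in MFP, between 36.0 and 155 TPM (median 108) in LN and BM, and at 0.27, 0.76, 1.0 and 6.94 TPM in the same order of lung libraries. For both subunits the highest lung library, replicate 2 of Lung CD44high, remained far below the lowest library of any other organ. Mcm6 fell by 5.85 ± 0.59 (SE) on the log2 scale in Lung CD44low (adjusted p = 2.86e-05) and by 4.79 ± 0.59 in Lung CD44high (adjusted p = 0.000173). Mcm5 fell by 5.95 ± 0.73 (adjusted p = 0.000118) and by 4.54 ± 0.73 (adjusted p = 0.000959). These were the largest falls among all members in Lung CD44low.

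The other subunits kept more of their level. Mcm7 was at 187 and 120 TPM in MFP, between 89.4 and 247 TPM (median 214) in LN and BM, at 7.81 and 10.7 TPM in Lung CD44low and at 34.2 and 28.6 TPM in Lung CD44high. It fell by 3.89 ± 0.42 (adjusted p = 5.13e-05) and by 2.22 ± 0.42 (adjusted p = 0.00256). Mcm2, Mcm3 and Mcm4 were at 4.03 to 9.93 TPM over the 4 lung libraries, against 28.6 to 99.8 TPM in MFP and 9.34 to 99.95 TPM in LN and BM. Their falls ranged from 2.73 ± 0.59 for Mcm3 to 3.36 ± 0.44 for Mcm4 in Lung CD44low. The subunits act as a ring with 1 copy of each, and per transcript length their levels spread unevenly. The highest subunit was 3.0 to 9.57 times the lowest within each of the 10 MFP, LN and BM libraries, and 28.9, 14.1, 34.2 and 4.79 times within the lung libraries. Mcm7 was the highest subunit in all 14 libraries, and Mcm5 or Mcm6 the lowest in the 4 from lung.

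Among licensing factors, 3 of 4 were DEGs in each lung group. Cdc6 was at 39.6 and 16.01 TPM in MFP, between 7.07 and 24.9 TPM (median 18.5) in LN and BM, and at 0.32, 0.42, 0.22 and 0.77 TPM in the lung libraries. It fell by 4.26 ± 0.56 in Lung CD44low (adjusted p = 0.000188) and by 4.16 ± 0.56 in Lung CD44high (adjusted p = 0.000316). Cdt1, which brings MCM2-7 to the origin, fell by 3.13 ± 0.54 and 3.19 ± 0.54, and the large origin recognition subunit Orc1 by 2.98 ± 0.58 and 3.16 ± 0.58. Orc6, the smallest subunit, was held at 18.5 to 26.9 TPM in lung against 56.3 and 81.6 TPM in MFP. It fell by 1.67 ± 0.37 and 1.55 ± 0.37, past the adjusted p (0.00488 and 0.00909) and short of the fold threshold. Licensing genes were thus down by unequal amounts, with the loaders at or below 2.57 TPM in each lung library.

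The factors that activate the helicase divided within the group. Mcm10, which initiates unwinding, was listed at 0 in replicate 1 of each lung group and at 0.17 and 0.24 TPM in the other 2 lung libraries, against 3.93 to 24.2 TPM in the other 10. Cdc45, part of the moving helicase, was at 1.24 to 3.31 TPM in lung against 24.95 and 43.7 TPM in MFP. Mcm10 fell by 3.96 ± 0.64 and 3.91 ± 0.64, and Cdc45 by 3.77 ± 0.49 and 3.16 ± 0.49, all with adjusted p at or under 0.00107. The 4 GINS subunits, which hold Cdc45 to MCM2-7, fell by unequal amounts. Gins4 remained at 37.5 and 32.8 TPM in Lung CD44low and at 23.1 and 27.4 TPM in Lung CD44high, against 60.4 and 57.2 TPM in MFP and 41.2 to 72.3 TPM (median 50.1) in LN and BM. Its fall of 0.73 ± 0.26 in Lung CD44low (adjusted p = 0.0435) and 1.19 ± 0.26 in Lung CD44high (adjusted p = 0.00538) was the smallest among the members that passed. The call in Lung CD44low was marginal and was lost in 13 of 21 alternatives, among them the replicate block (adjusted p = 0.0538), no filter on low values (0.0687), median-ratio scaling (0.137) and leaving out either library of Lung CD44low or of MFP. Gins1, Gins2 and Gins3 fell by 1.90, 1.88 and 1.45 in Lung CD44low and by 2.39, 3.09 and 1.96 in Lung CD44high. Gins4 was the highest and Gins1 the lowest GINS subunit in each lung library, 14.4 to 24.3 times apart, against 4.8 to 10.6 times between the extremes in the other libraries.

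Of the polymerase genes, 3 of 5 were DEGs in each lung group. Pola2, the regulatory subunit of polymerase α, was at 73.6 and 59.0 TPM in MFP, between 27.2 and 72.1 TPM in LN and BM, and at 3.19 to 5.70 TPM in lung. It fell by 3.90 ± 0.42 (adjusted p = 4.57e-05) and by 3.46 ± 0.42 (adjusted p = 0.000155). Prim1, the primase that makes the RNA primer, fell by 3.28 and 2.96, and Pole, the leading-strand catalytic subunit, by 3.07 and 2.93. Pold1, the catalytic subunit of polymerase δ, fell by 1.70 and 1.99. The catalytic subunit of polymerase α, Pola1, passed against LN and BM but not against MFP. It was at 10.7 and 8.47 TPM in MFP, between 3.56 and 23.5 TPM (median 10.0) in LN and BM, and at 1.60, 2.45, 5.64 and 4.17 TPM in lung, so that its lung and LN libraries overlapped. Its log2 fold change was -1.81 in Lung CD44low (adjusted p = 0.0545) and -0.84 in Lung CD44high (adjusted p = 0.387), neither past the threshold. The first passed in 9 of 21 alternatives, with an adjusted p of 0.0415 under median-ratio scaling and 0.0133 with the compared groups fitted alone. Against the 8 LN and BM libraries, Pola1 was lower in lung by a log2 fold change of -1.39 ± 0.42 (adjusted p = 0.0159), and did not pass without Lung CD44low replicate 1 (0.0689) or Lung CD44high replicate 2 (0.0595).

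Pcna, the clamp that tethers polymerases, was at 355 and 211 TPM in MFP, between 118 and 242 TPM (median 199) in LN and BM, and at 46.3, 40.6, 45.5 and 55.0 TPM in lung. It was the highest member in MFP replicate 1 and still among the highest in lung, although it fell by 2.63 ± 0.33 (adjusted p = 0.000157) and 2.43 ± 0.33 (adjusted p = 0.000379). The clamp loader subunits Rfc2, Rfc3, Rfc4 and Rfc5 fell by 2.39, 2.39, 1.53 and 2.96 in Lung CD44low and by 2.18, 2.23, 2.49 and 2.50 in Lung CD44high. Rfc1, the large loader subunit, was at 39.2 and 35.9 TPM in MFP, between 20.4 and 73.1 TPM (median 26.5) in LN and BM, and at 42.5, 28.8, 22.7 and 29.8 TPM in lung. All of these ranges overlapped, and its log2 fold changes were -0.10 ± 0.50 in Lung CD44low (adjusted p = 0.914), -0.51 ± 0.50 in Lung CD44high (adjusted p = 0.484) and -0.01 ± 0.31 between lung and the LN and BM libraries (adjusted p = 0.983). The 95% interval of the last ran from -0.70 to 0.68, before any adjustment. In Lung CD44low replicate 1, Rfc1 was the highest loader subunit, a place held by Rfc2 in the other 13 libraries.

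Fen1, the flap endonuclease, and Lig1, the ligase, join Okazaki fragments on the lagging strand, and both were DEGs in both lung groups. Fen1 was at 13.0 to 20.1 TPM in lung against 113 and 146 TPM in MFP, and Lig1 at 2.23 to 3.71 TPM against 37.4 and 49.9 TPM. They fell by 3.20 and 3.35 in Lung CD44low and by 2.79 and 3.74 in Lung CD44high.

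In the supply of deoxynucleotides, the small ribonucleotide reductase subunit Rrm2 was at 211 and 104 TPM in MFP, between 24.6 and 148 TPM (median 116) in LN and BM, and at 2.33, 4.26, 0.68 and 8.95 TPM in lung. It fell by 5.15 ± 0.86 in Lung CD44low (adjusted p = 0.000935) and by 5.19 ± 0.86 in Lung CD44high (adjusted p = 0.00117). With 1 TPM added and all libraries fitted, Rrm2 had the largest fall of any member in Lung CD44high. Its 2 Lung CD44high libraries were far apart, and a fit of those groups and MFP alone gave an adjusted p of 0.0506. Its partner Rrm1, the large subunit, was at 17.7, 26.2, 41.0 and 41.3 TPM in lung against 161 and 108 TPM in MFP, and fell by 2.56 and 1.66. The fall in Lung CD44high was marginal (adjusted p = 0.0449) and was lost in 13 of 21 alternatives, among them the replicate block (0.0501), no filter on low values (0.0954), median-ratio scaling (0.0529) and leaving out either library of Lung CD44high or of MFP. Thymidylate synthase, Tyms, was at 49.3, 42.5, 42.5 and 69.7 TPM in lung, and replicate 2 of Lung CD44high just overlapped LN CD44low replicate 2 at 69.4 TPM. It fell by 1.58 in Lung CD44low (adjusted p = 0.0288), a call lost in 5 of 21 alternatives, namely without a filter on low values (0.0634) and without any 1 of the Lung CD44low or MFP libraries (0.0529 to 0.158). Its log2 fold change of -1.33 in Lung CD44high did not pass (adjusted p = 0.0665) except in 3 of 21 alternatives, without LN CD44low replicate 1 (0.00657), without its replicate 2 (0.00657) and without replicate 2 of LN CD44low and BM CD44low (0.00824). Tk1, the salvage kinase for thymidine, was at 66.2 and 31.1 TPM in MFP, between 46.0 and 190 TPM (median 168) in LN and BM, and at 3.01, 5.38, 2.11 and 4.63 TPM in lung. It fell by 3.20 and 3.47 against MFP, and by 4.93 ± 0.29 against the LN and BM libraries (adjusted p = 5.22e-07).

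Chaf1b and Chaf1a, which deposit histones H3 and H4 on new DNA, were DEGs in both lung groups. Chaf1b was at 88.8 and 47.2 TPM in MFP, between 18.0 and 50.4 TPM (median 39.5) in LN and BM, and at 1.75, 2.08, 1.83 and 4.04 TPM in lung. It fell by 4.50 ± 0.42 (adjusted p = 1.66e-05) and 4.12 ± 0.42 (adjusted p = 5.21e-05), the smallest adjusted p of any member in both comparisons. Chaf1a fell by 2.96 and 3.15.

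**Figure D3:**
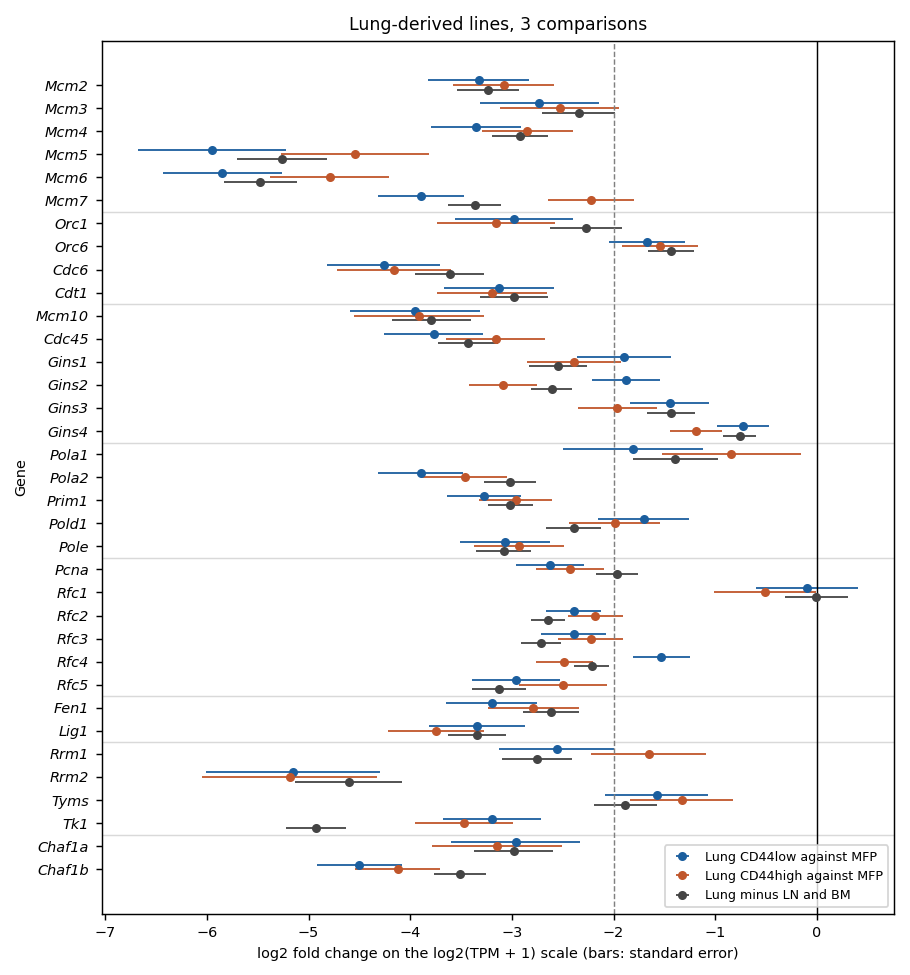
Log2 fold change of each member on the log2(TPM + 1) scale in Lung CD44low and Lung CD44high against MFP and in lung against LN and BM, with bars of 1 SE from limma, genes ordered by role and a dashed line at the DEG threshold of -2. Most points lie below -2, the lowest at -5.95 for Mcm5 in Lung CD44low, while Rfc1 lies at -0.10, -0.51 and -0.01.

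In LN- and BM-derived cells the replication genes stood near the primary tumor cells, and no member was a DEG against MFP in any of the 4 comparisons, where 4.79% (LN CD44low), 6.12% (LN CD44high), 7.16% (BM CD44low) and 7.67% (BM CD44high) of all genes were. By the unadjusted p under 0.05, 2, 1, 1 and 2 members passed in that order, against 26.6%, 36%, 35% and 38.6% of all genes. The median log2 fold changes of the members were -0.29, 0.14, 0.35 and -0.16, against -0.18, -0.30, -0.04 and -0.34 over all genes. Dividing TPM by median-ratio size factors shifted the median of all genes to 0.02 in LN CD44low and 0.03 in LN CD44high, and the members' medians with it, to 0.02, 0.64, 0.64 and 0.36 in the 4 comparisons, so that the sign in LN CD44low and BM CD44high depended on the scaling. In LN CD44low, 0 members passed the adjusted p alone (14% of all genes did), and in each of the other 3 groups Tk1 was the 1 member that did. These counts depended on single libraries. With 1 or 2 libraries left out, the members' median ran from -1.02 to 0.34 in LN CD44low and from -0.27 to 0.50 in LN CD44high. It ran from 0.04 to 0.62 in BM CD44low and from -0.56 to 0.18 in BM CD44high. Under median-ratio scaling, 6 members passed the adjusted p as higher in LN CD44high and 2 in BM CD44low. The share of all genes that passed under that scaling was not computed. Tk1 was at 178 and 166 TPM in LN CD44high, 190 and 177 TPM in BM CD44low and 157 and 169 TPM in BM CD44high, and all 6 values lay above both MFP values. It rose by 1.89 ± 0.48 (adjusted p = 0.0184; 5.87% of all genes rose by this rule), 1.99 ± 0.48 (adjusted p = 0.0152; 9.36%) and 1.82 ± 0.48 (adjusted p = 0.0199; 8.38%). In LN CD44low, at 117 and 46.0 TPM, its log2 fold change was 0.68 (adjusted p = 0.43). The comparisons shared the 2 MFP libraries, and without MFP replicate 2 the adjusted p of the same 3 was 0.142, 0.121 and 0.150. All 3 calls were also lost when the compared groups were fitted alone (adjusted p = 0.0626, 0.0956 and 0.0596).

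Part of the spread lay between replicates. In MFP, replicate 1 exceeded replicate 2 for 35 of 35 members, where 49.8% of all tested genes did so, with a median log2 difference of -0.64 for replicate 2 against 0 over all genes. In LN CD44low, replicate 1 exceeded replicate 2 for 35 of 35 members as well (62.4% of all genes), with a median of -1.44 (all genes -0.215). In BM CD44high, replicate 2 was the higher for 34 members (52.1% of all genes). Replicate 2 of LN CD44low was the lowest of the 8 LN and BM libraries for 34 members, where 17% of all genes had it lowest. Its Orc1 was at 1.47 TPM and its Rrm2 at 24.6 TPM, against 8.58 and 136 TPM in replicate 1 of the same group. The members thus differed in 1 direction between the clones of these 3 groups. In the other 4 groups they were divided. Replicate 2 was the higher for 23 members in LN CD44high (median 0.086, all genes -0.031), 15 in BM CD44low (-0.161, all genes 0.216), 23 in Lung CD44low (0.163, all genes 0.089) and 26 in Lung CD44high (0.33, all genes -0.007).

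Few genes of any kind passed between the CD44 sorts in LN and BM, so 0 members there is near the share of all genes. In lung few members passed, where many genes did. Between CD44high and CD44low cells, 0 members were DEGs in LN, BM or lung, where 0.208%, 0.104% and 11.3% of all genes were. By the adjusted p alone 0 passed in LN and BM (0.378% and 0.15% of all genes), and the unadjusted p was under 0.05 for 2 members in LN (Rfc4 and Tk1, 10.1% of all genes) and for 1 in BM (Orc6, 7.4%). In LN the members' median log2 difference was 0.49 (all genes -0.126), and it was 1.29 without LN CD44low replicate 1 and -0.19 without LN CD44low replicate 2. Over the 6 CD44high against the 6 CD44low libraries with organ as a term, limma called 0 of all 15348 genes, and the unadjusted p was under 0.05 for 3017 genes (19.7%) and 1 member, Mcm7. In lung 3 members passed the adjusted p. Mcm7, at 7.81 and 10.7 TPM in CD44low and 34.2 and 28.6 TPM in CD44high, rose by 1.67 ± 0.42 (adjusted p = 0.0143; 12.2% of all genes rose). Gins2, at 10.9 and 12.2 TPM in CD44low and 5.13 and 3.82 TPM in CD44high, fell by 1.21 ± 0.33 (adjusted p = 0.0209; 18.5% of all genes fell). Rfc4, at 18.9 and 16.9 TPM in CD44low and 7.82 and 9.76 TPM in CD44high, fell by 0.95 ± 0.28 (adjusted p = 0.0287). The libraries of the 2 sorts did not overlap for these 3 genes, nor for several members that did not pass, such as Pola1 and Rrm1. How many of all genes did so was not counted. The calls rested on all 4 lung libraries: Rfc4 lost its call without any 1 of them, Gins2 without Lung CD44low replicate 1 or 2 or Lung CD44high replicate 2, and Mcm7 without Lung CD44low replicate 1 or Lung CD44high replicate 1. Against the mean CD44 difference of LN and BM, the lung difference was -1.14 ± 0.35 for Rfc4 (adjusted p = 0.0408; 11.3% of all genes were lower), 1.40 for Mcm7 (adjusted p = 0.0837) and -1.22 for Gins2 (adjusted p = 0.0594).

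Other genes of the pathway moved with the members in lung. Of 42 further replication genes, 15 were lower DEGs in Lung CD44low and 19 in Lung CD44high, none was a higher DEG, and 30 and 32 fell by the adjusted p alone. Asf1b, a histone chaperone, was at 0.71, 0.93, 1.03 and 2.58 TPM in lung against 67.7 and 41.6 TPM in MFP and fell by 4.90 ± 0.59 in Lung CD44low (adjusted p = 0.000103). Uhrf1, which carries DNA methylation through replication, fell by 4.67, Pclaf, a Pcna partner, by 3.97 and the histone chaperone Nasp by 3.65. At the other end of the list, Mcmbp, which binds MCM subunits, had a log2 fold change of 1.59 (adjusted p = 0.131). Of 8 further deoxynucleotide enzymes, 4 were lower DEGs in each lung group, with Dck, the deoxycytidine kinase, and Shmt1, of folate metabolism, down by 3.94 and 3.68 in Lung CD44low, and Dctd, a deaminase of deoxycytidylate, down by 2.32. Rrm2b, the reductase subunit used outside S phase, had a value of 0.74 (adjusted p = 0.0845). Mitosis markers were also low, with 16 of 16 as lower DEGs in both lung groups and a median of -4.46 in Lung CD44low and -4.17 in Lung CD44high. The call of Mki67 in Lung CD44low was lost in 4 of 21 alternatives. Each left out 1 Lung CD44low or MFP library, with log2 fold changes of -2.91 to -2.68. Plk1, a mitotic kinase, was at 0.19, 1.09, 0.12 and 3.10 TPM in lung against 79.3 and 80.2 TPM in MFP. The summed mitosis markers of LN and BM were mostly Birc5 (345 to 4172 TPM), and without it the sum was 217 to 1748 TPM there, 1055 and 1008 TPM in MFP and 7.03 to 84.8 TPM in lung.

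The regulators of S phase entry were divided. Of 20 E2F, pocket protein and G1/S cyclin genes, 7 were lower DEGs and 1 was a higher DEG in Lung CD44low, and 8 were lower in Lung CD44high. Ccna2, cyclin A2, was at 0.27, 0.98, 0.32 and 2.84 TPM in lung against 101 and 84.0 TPM in MFP and fell by 5.87 ± 0.86 in Lung CD44low (adjusted p = 0.000392). Ccne2, cyclin E2, fell by 4.90, Fbxo5, an inhibitor of the anaphase-promoting complex, by 3.77 and the repressor E2f8 by 3.52, whereas the repressor E2f6 rose by 2.43 (adjusted p = 0.0235). The E2f6 call was lost in 4 of 21 alternatives, namely without a filter on low values (0.052), without either Lung CD44low library (0.0915 and 0.106) and without MFP replicate 2, where its log2 fold change was 1.70 (0.170). Among 7 inhibitors of cyclin-dependent kinases, 2 were higher DEGs and 0 lower in Lung CD44low, whereas in Lung CD44high 1 was higher (Cdkn2c) and 2 were lower (Cdkn2b and Cdkn1a, by log2 fold changes of -5.44 and -3.78). Cdkn2c, p18, was at 59.7 and 51.1 TPM in Lung CD44low and 57.8 and 64.5 TPM in Lung CD44high against 2.21 and 3.59 TPM in MFP and 9.57 to 50.6 TPM in LN and BM, and rose by 3.87 ± 0.41 and 4.01 ± 0.41 against MFP. Cdkn1c, p57, was at 7.78 and 7.11 TPM in Lung CD44low, at 0 and 0.27 TPM in MFP and listed at 0 in the other 10 libraries, and rose by 2.90 ± 0.15.

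Of the 7 inhibitors, 3 were lower DEGs in Lung CD44high against Lung CD44low, where 0 replication genes were. Cdkn2b, p15, was at 113 and 71.6 TPM in Lung CD44low and at 0.49 and 0.26 TPM in Lung CD44high, a fall of 6.05 ± 0.28 (adjusted p = 1.49e-07). Cdkn1a, p21, was at 345 and 351 TPM and at 14.1 and 24.9 TPM, a fall of 4.14 ± 0.45 (adjusted p = 7.61e-05), and its value in Lung CD44low against MFP was 0.36 (adjusted p = 0.557). Cdkn1c fell by 3.08. Summed over the 7 inhibitors, Lung CD44low held 575 and 526 TPM and Lung CD44high 120 and 132 TPM, against 205 to 477 TPM in the other 10 libraries.

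Outside these lists, the genes whose pattern over the 14 libraries was most like the mean of the members' standardised log2(TPM + 1) included Hat1 (r = 0.996), Ncaph (r = 0.992), Zwilch (r = 0.992) and Aunip (r = 0.991). Hat1, the histone acetyltransferase of newly made H4, was at 16.3 to 20.9 TPM in lung and at 44.1 to 121 TPM in the other libraries. Among the members, each of which is part of that mean, Mcm10 was nearest to it (r = 0.998), followed by Mcm2 (r = 0.996), and Gins4 (r = 0.876), Pola1 (r = 0.820) and Rfc1 (r = 0.218) were the farthest. These values describe 14 libraries in 7 groups that share a division between lung and the rest.

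In single cells the order of the organs was different. The cells kept had counts in over 250 genes and a mitochondrial share under 10%, namely 1236 of 3623 barcodes in lungH, 348 of 2808 in lungL and 2562 of 3297 in lymphH, with medians of 557, 4011 and 585 counts per cell. Of all counts in kept cells, the members made up 47.3 per 10000 in lungH (10446 counts, exact Poisson 95% interval 46.4 to 48.2), 22.1 in lungL (4911 counts, 21.5 to 22.7) and 32.6 in lymphH (17217 counts, 32.1 to 33.1). The level in lungH was 2.14 times that in lungL (2.07 to 2.21) and 1.45 times that in lymphH (1.42 to 1.49). With 1 library each there is no test between conditions, and the intervals cover counting error only. They treat each count as independent, and are too narrow if PCR copies were not collapsed, which is not stated. Barcodes outside the cell filter, which hold free RNA and poor cells, had 34.9, 17.0 and 23.8 per 10000 in the same order, and the part of free RNA in the difference was not tested.

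By gene, the level was highest in lungH for 27 members, in lymphH for 6 and in lungL for 2, and lowest in lungL for 31. The interval of lungH lay above that of lungL for 26 members and below it for none. Against lymphH it lay above for 20 and below for 4. None of these counts was made over all genes, so they describe the members only. Pcna was at 9.01 per 10000 in lungH, 3.12 in lungL and 4.25 in lymphH, and Mcm6 at 2.48, 1.14 and 1.23. Tyms was at 2.05, 0.49 and 0.64, the widest ratio of lungH to lymphH among these 3 genes. Rrm1 and Mcm4 went the other way between the CD44high libraries, with 3.39, 1.504 and 4.45 for Rrm1 and 1.82, 1.55 and 2.49 for Mcm4.

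**Figure D4:**
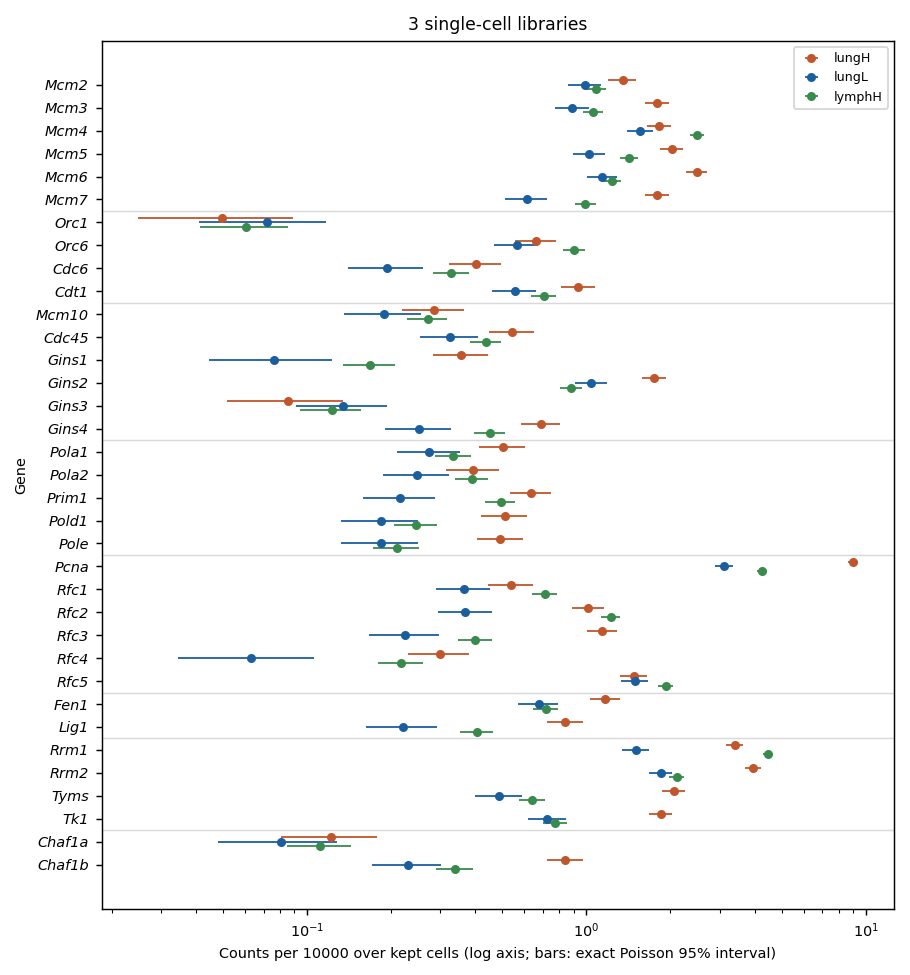
Counts of each member per 10000 counts in kept cells of lungH, lungL and lymphH on a log axis, with exact Poisson 95% intervals. These cover counting error only, and are too narrow if PCR copies were not collapsed. For 27 members the lungH point is the highest, with Pcna at 9.01, 3.12 and 4.25 per 10000 in lungH, lungL and lymphH.

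Depth differed between the libraries, so cells were also compared at equal depth. Without thinning, 75.4%, 76.1% and 75.6% of kept cells in lungH, lungL and lymphH had a count of any member. Thinned to 400 counts per cell, which left out 2, 4 and 146 shallower cells, the shares were 63.9% (exact binomial 95% interval 61.2% to 66.6%), 41.6% (36.3% to 47.0%) and 62.3% (60.4% to 64.3%). Among the 164, 174 and 234 cells with at least 4000 counts, thinned to 4000, 49.4% (41.5% to 57.3%), 23.6% (17.5% to 30.6%) and 44.0% (37.6% to 50.6%) had counts of at least 10 different members. At that depth and with at least 10 members, lungL held the smallest share, while the intervals of lungH and lymphH overlapped. With at least 3 members at that depth the shares were 79.9%, 51.7% and 88.0%, so that lymphH held the largest. The order was different for at least 3 members in cells thinned to 400 counts, where the shares were 11.02% (9.33% to 12.9%), 8.72% (5.96% to 12.2%) and 7.86% (6.82% to 9.01%). There lymphH was the lowest, its interval lay below that of lungH, and the interval of lungL overlapped both.

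Within each library the replication genes were unevenly spread over cells. The thinned cells of lungH held 0 to 58 member counts (median 16.5), those of lungL 0 to 45 (median 3.5) and those of lymphH 0 to 38 (median 12). The variance was 13.4, 11.6 and 6.47 times the mean. Whether copies made by PCR were collapsed is not stated, so the ratio that counting error alone would give is not known. The tenth of cells with most member counts held 26.4%, 34.9% and 22.9% of them. In lungL, 95 of 174 cells (54.6%) had 4 or fewer member counts and 33 (18.97%) had 20 to 39, whereas in lungH 37 of 164 cells (22.6%) had 4 or fewer and 25 (15.2%) had 40 or more. Mitosis counts were low in the cells with fewest member counts. In lungH, cells with 4 or fewer member counts had a mean of 0.43 mitosis counts, cells with 20 to 39 had 13.5, and cells with 40 or more had 8.72. In lymphH the mean was 0.64 at 4 or fewer, 11.3 at 10 to 19 and 9.21 at 20 to 39, and in lungL it was 0.76 at 4 or fewer and 6.88 at 20 to 39. Spearman's rho between member and mitosis counts over cells of the same depth was 0.61, 0.59 and 0.62 (0.595, 0.549 and 0.57 without the mitosis marker Birc5, which was high in lymphH), given as a description, since cells of 1 library share its culture.

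**Figure D5:**
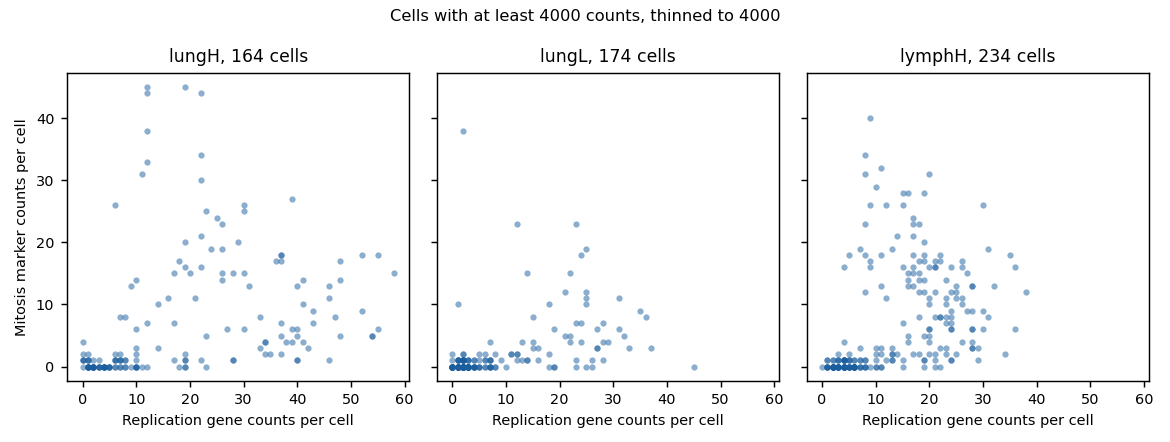
Member counts (x axis) against mitosis marker counts (y axis) per cell, 1 point per kept cell with at least 4000 counts after thinning to 4000, for lungH (164 cells), lungL (174 cells) and lymphH (234 cells). The x values span from 0 to 58, 45 and 38, and 95 of the 174 lungL cells lie at 4 member counts or fewer.

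The bulk and single-cell values of the same sorts did not follow the same order. In bulk, the members summed to 360 and 461 TPM in Lung CD44high against 2790 and 2947 TPM in LN CD44high, while in single cells lungH stood above lymphH. Mitosis markers were at 7.48 and 93.7 TPM against 5032 and 5222 TPM in bulk and at 20.003 and 18.5 per 10000 in the single-cell libraries. Birc5, survivin, made up 3601 and 3645 TPM of the sums in LN CD44high, and without it the other 15 markers were at 7.03 and 84.8 TPM against 1431 and 1577 TPM in bulk and at 18.3 and 9.71 per 10000 in single cells, 1.89 times higher in lungH (1.81 to 1.97). The summed markers of cell identity kept more of their order. Epithelial markers were at 4.27, 0.88 and 9.18 per 10000 in lungH, lungL and lymphH. Fibroblast markers were at 0.27, 21.4 and 0.12, and smooth muscle or myoepithelial markers at 0.07, 59.9 and 0.21. Single genes did not all follow their sum. In cells with at least 4000 counts, the lungH epithelial counts lay in Krt8 and Krt18, with Cdh1 and the claudins at 0. Epcam had 2 counts there in lungH and 0 in lungL. Krt18 was at 2.59 per 10000 in lungH and 1.05 in lymphH, the reverse of its bulk order. Dcn was at 0.09 per 10000 in lungL and Lum at 0, against 4091 and 4315 TPM of Dcn in bulk Lung CD44low. The units differ (TPM against counts per 10000), the libraries came from cultures that the labels do not link, and the part of the clone, the culture or the assay in the different order was not tested.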

How the data were processed

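The authors made bulk cDNA with a modified SMART-seq2 protocol, which keeps no strand, aligned reads to mm10 with STAR at a stated minimum of 10 M reads, quantified them with RSEM and deposited TPM values per gene. Read depth per library is otherwise not given in the sources used here, so counting error could not be computed for low TPM. Symbols came from the deposited single-cell matrices. For single cells (ddSeq, SureCell) the authors quantified with kallisto and deposited whole-number counts per gene and barcode, unfiltered. Whether molecular identifiers were collapsed is not stated, doublets were not removed here, and cells are numbered in each matrix, so shared barcodes cannot be counted. The study's filter, applied here, left more cells in each library than the study states it clustered.

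The 15348 genes that reached 1 TPM in 2 or more of 14 libraries were tested with limma 3.58.1 in R 4.3.3 (lmFit, eBayes with trend) on log2(TPM + 1) as 7 group means (7 residual degrees of freedom), and adjusted by Benjamini-Hochberg in each of 12 comparisons. The comparison across organs used the 12 sorted libraries with organ as a term. Standard errors are limma's, and the 2 replicates of a group were distinct clones with no batch named. Reads shared by overlapping genes could not be told apart. The procedures were checked on simulated data. Single-cell counts were summed over kept cells per 10000, with exact 95% intervals, for 35849 genes, using Python 3.11.15, pandas 2.3.3, numpy 2.4.6, SciPy 1.17.1 and Matplotlib 3.10.9.

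Alternatives were no filter (31466 genes), a minimum of 5 TPM (11508 genes), a pseudocount of 0.1, median-ratio scaling over 8694 genes, leaving out each library, fitting the compared groups alone and adding the replicate number as a block. For single cells they were over 500 genes, other mitochondrial limits, the mean over cells, all barcodes and thinning to 200 counts. Added after the data were seen were leaving out LN CD44low and BM CD44low replicate 2 together, keeping cells with at least 4000 counts and summing the mitosis markers without Birc5. The members, gene lists and tests were chosen with earlier results of these data known. All 35 members are named, and of the other lists the up to 4 DEGs with the largest change in Lung CD44low against MFP or between the lung sorts and the gene at the other end, plus the 5 genes most like the members' mean. Of these, 2 genes are not reported here.

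Across the 21 pairs of groups, the correlation of deviations between samples with the same number ran from -0.194 to 0.168, over 0.1 in 3, so the numbers were not taken to pair samples.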

Additional observations from a re-analysis of the deposited data

Results flagged for a closer look

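Rfc4, a clamp loader subunit, was flagged because its CD44 difference in lung differed from that in LN and BM by a test of the difference itself. CD44high minus CD44low was -0.95 ± 0.28 (SE) on the log2 scale in lung, 0.76 ± 0.28 in LN and -0.38 ± 0.28 in BM, and the lung difference minus the mean of the other two was -1.14 ± 0.35 (limma, adjusted p = 0.0408). The value kept its sign under all 21 alternatives, from -1.36 to -0.92 with 1 library left out, and lost its call in 10 of them. In the single-cell libraries, 1 per sort, Rfc4 was at 0.30 per 10000 in lungH (66 counts) and 0.06 in lungL (14 counts), the opposite order to bulk. The summed members were 2.14 times higher in lungH than in lungL, so this order was not particular to Rfc4.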

How the results depend on the processing

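The count of members as lower DEGs stayed at 25 to 28 in Lung CD44low against MFP, 24 to 29 in Lung CD44high against MFP and 28 to 30 in lung against LN and BM over every alternative run. Where LN or BM against MFP had 0 members as DEGs, some alternatives gave 1. That member was Tk1, higher, with median-ratio scaling in LN CD44high, BM CD44low and BM CD44high (1 each), with a pseudocount of 0.1 in BM CD44low (1), and in BM CD44low without replicate 2 of LN CD44low and BM CD44low (1). With 1 library left out the counts were 0 to 1 in these 3 groups and in LN CD44low, where the member was Orc1, lower, without LN CD44low replicate 1. The replicate block gave 32 and 31 members past the adjusted p, in place of 33 and 32, in Lung CD44low and Lung CD44high, and changed no count of DEGs by over 1.5 times. Of 2877 fold changes recomputed for 137 printed ones, 2766 kept direction and side of the threshold, 90 no longer passed, 12 newly passed and 9 changed sign, all of them for Rfc1. Rfc1 in Lung CD44low against MFP was 0.032 with median-ratio scaling and ran from -0.37 to 0.18 with 1 library left out, above 0 without Lung CD44low replicate 2. In lung against LN and BM it ran from -0.22 to 0.20 with 1 library left out, and was 0.071 without replicate 2 of LN CD44low and BM CD44low. Beside the calls named above, falls against MFP that no longer passed in 1 to 3 alternatives were those of Gins1, Gins3 and Pold1 in Lung CD44low and of Gins3, Pold1, Orc6, Mcm3 and Rrm2 in Lung CD44high. Rfc2 and Rfc3 in Lung CD44high were each no longer a DEG with 1 library left out. The cause was not tested.

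In single cells, members per 10000 in lungH, lungL and lymphH were 40.4, 20.98 and 29.1 as a mean over cells and 43.5, 20.8 and 31.9 over all barcodes. LungH and lymphH were at 50.2 and 33.7 with over 500 genes, 46.3 and 32.1 with no mitochondrial limit and 50.1 and 33.9 in cells with at least 4000 counts. Thinned to 200 counts, the shares of cells with a member count were 46.2%, 29.3% and 41.1%. LungH was highest and lungL lowest in each of these. Low TPM values, such as those of Mcm10 and Cdc6 in lung, have a counting error that could not be computed, and the single-cell values have no replicate.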
